A study of Homo sapiens with 65 samples.

Results

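The planar cell polarity genes described here are VANGL1, VANGL2, CELSR1, CELSR2, CELSR3, PRICKLE1, PRICKLE2, PTK7, ROR2 and SCRIB. They were matched by symbol to the Ensembl identifiers of the count table, and all 10 were found among its 58302 genes. VANGL2 was chosen by its measured level, higher in sorted knockout cells, so its difference between genotypes in sorted cells is given as a description and was not tested. The other 9 were taken with it as genes of the same pathway.

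The cells were of H9, an established human embryonic stem cell line, carrying an mCherry reporter in SOX17 and a GFP reporter in RUNX1C, each on 1 allele (SOX17 mCHERRY/w RUNX1C GFP/w). Every group carried both reporters. WT denotes this line and KO its derivative in which CRISPR editing deleted the DNA-binding domain of RUNX1, the transcription factor needed for the emergence of blood from endothelium. Whether the KO line is 1 clone is not stated in the labels. In the mesoderm protocol, cells in STAPEL medium received BMP4, activin A, VEGF, SCF and FGF2 until day 4, with SB431542 and CHIR 99021 added from day 2 to day 4, and then VEGF, SCF, FGF2 and IGF2. Unsorted WT and KO cells were taken at day 0, 2 and 4, with 4 libraries in each of these 6 groups. At day 7, CD34+ CD43- endothelial cells were sorted into SOX17+ and SOX17- fractions, with 4 and 4 libraries in WT and 4 and 3 in KO. At day 12, the groups were CD34+ CD43- SOX17+ endothelium of WT (4 libraries) and KO (4), CD34+ CD43+ cells of WT that were SOX17+ (2) or SOX17- (3), and a single KO library of CD34+ CD43- SOX17- cells. Unsorted WT cells of the endoderm protocol were taken at day 2, 4 and 7, with 3 libraries each, in Act A, CHIR and PI-103 at first and then in Act A and DMH-1. The WT day 0 group set before them, also of 3 libraries, is titled Undifferentiated, and its titles name neither endoderm nor sorting. It is called endoderm of day 0 here. The 65 libraries thus form 19 groups. Groups follow the sample titles, since on day 2 and day 4 the genotype field of KO samples leaves the deletion out. Nothing in the labels says that libraries of a group came from separate cultures, so p-values measure the spread between libraries, which may be technical.

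Planar cell polarity orients cells within the plane of a tissue. CELSR cadherins bridge neighbouring cells, VANGL and PRICKLE proteins form a complex on one side of the cell opposite a Frizzled and Dishevelled complex on the other, and WNT5A acts on the pathway through ROR2. In gastrulating embryos the same pathway drives the cell movements of convergent extension, and VANGL2 and PTK7 are needed for closure of the neural tube.

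The libraries held 10366048 to 19081031 counts. RUNX1, whose domain was deleted, was at 104 ± 28.9 CPM (counts scaled to the library total, mean ± SD) in SOX17+ cells of day 7 of WT, at 35.3 ± 5.85 CPM in those of KO, at 97.6 ± 14.7 and 37.3 ± 2.14 CPM in SOX17- cells, and at 60.2 ± 22.7 and 14.5 ± 5.03 CPM in SOX17+ cells of day 12. Before sorting, RUNX1 was at 2.77 ± 3.28, 10.7 ± 1.95 and 41.6 ± 18.4 CPM in WT of day 0, 2 and 4 and at 0.940 ± 0.615, 10.2 ± 9.01 and 30.9 ± 26.1 CPM in KO. The libraries of both genotypes overlapped on each of these days and no difference passed (edgeR adjusted p = 1). A count over the whole gene need not fall when 1 domain is deleted, so for unsorted cells RUNX1 gives no check of the KO labels. Between the sorted fractions SOX17 followed its gate, at 176 ± 32.4 CPM in WT SOX17+ and 46.4 ± 16.9 CPM in WT SOX17- cells of day 7. SPN, which encodes CD43, reached 248 ± 31.5 and 412 ± 74.6 CPM in the 2 CD43+ groups against 2.42 ± 0.845 CPM in WT endothelium of day 12. The summed level of 8 endothelial markers (CDH5, PECAM1, KDR, TEK, EMCN, ESAM, VWF and CLDN5) lay between 7023 and 13614 CPM in the CD43- sorted groups and between 116 and 298 CPM in CD43+ SOX17- cells. In endoderm of day 7 the summed level of 7 definitive endoderm markers was 16820 to 19805 CPM. Libraries that differed most from their group were number 1 of day 0 in WT and KO, WT SOX17- number 4 of day 7 and, at day 4, WT number 3 and KO number 4. Some of the results that include them are also given without them.

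VANGL2 encodes a membrane protein at the core of the pathway, on the plus strand of chromosome 1 (ENSG00000162738, chr1:160400586-160428678, GRCh38, GENCODE 29). VANGL1, its paralog, lies on the same chromosome and strand (ENSG00000173218, chr1:115641953-115698224). ROR2, a receptor tyrosine kinase that binds WNT5A, lies on the minus strand of chromosome 9 (ENSG00000169071, chr9:91563091-91950162). The 250 bases before the RefSeq start of these 3 genes are shown because VANGL2 is the gene picked for its difference between genotypes, VANGL1 is its paralog, and ROR2 had the widest range over the groups. The VANGL2 and ROR2 windows lie outside the GENCODE genes, and that of VANGL1 reaches just into its first exon. They are read from 5′ to 3′ on the gene's strand from build GRCh38.p14, and capitals mark GC boxes (GGGCGG on either strand, so also CCGCCC), the sites that SP factors are known for.
VANGL2, chr1:160400314-160400563, plus strand: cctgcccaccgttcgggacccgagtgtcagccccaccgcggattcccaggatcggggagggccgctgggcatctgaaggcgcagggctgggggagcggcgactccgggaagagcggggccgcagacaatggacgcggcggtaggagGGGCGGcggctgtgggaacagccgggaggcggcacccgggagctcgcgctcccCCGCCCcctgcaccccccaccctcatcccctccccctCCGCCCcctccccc
VANGL1, start 1, chr1:115641720-115641969, plus strand: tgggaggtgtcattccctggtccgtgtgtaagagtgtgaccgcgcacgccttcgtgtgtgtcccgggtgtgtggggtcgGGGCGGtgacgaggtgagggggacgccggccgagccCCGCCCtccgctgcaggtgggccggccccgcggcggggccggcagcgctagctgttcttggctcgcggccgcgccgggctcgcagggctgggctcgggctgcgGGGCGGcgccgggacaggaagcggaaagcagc
ROR2, chr9:91950229-91950478, minus strand: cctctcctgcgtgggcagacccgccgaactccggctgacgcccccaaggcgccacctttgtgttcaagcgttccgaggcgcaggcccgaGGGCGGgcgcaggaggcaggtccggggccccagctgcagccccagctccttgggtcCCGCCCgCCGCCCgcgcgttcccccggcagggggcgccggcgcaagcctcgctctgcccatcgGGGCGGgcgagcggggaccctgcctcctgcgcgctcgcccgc

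VANGL2 and VANGL1 each held 3 GC boxes here and ROR2 held 4, in windows of 76.4%, 75.2% and 78.0% G and C. Of the 10 genes, 8 had an entry in the RefSeq table, with 11 starts in all. A GC box stood before 9 of the 11 starts, of 7 genes, against 42.6% of all 35116 promoters of the table. Both PRICKLE2 starts held none, at 52% and 47.2% G and C. The core of the RUNX motif, TGTGGT or TGCGGT on either strand (also ACCACA or ACCGCA), was searched because the KO lacks the part of RUNX1 that binds it. None of the 11 starts held it, while 16.3% of all promoters of this length did. A match is a stretch of letters and not a bound site, and its lack says only that these letters are not in the window. The data hold no measure of binding.

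VANGL2 was high in pluripotent cells, in early mesoderm and in endoderm, and low in sorted endothelium and blood cells (plot of VANGL2 in each library). In WT cells of the mesoderm protocol the 4 libraries held 192, 183, 175 and 178 CPM on day 0, 235, 235, 241 and 234 CPM on day 2, and 185, 147, 128 and 144 CPM on day 4. All day 2 libraries lay above all of day 0 and of day 4, while days 0 and 4 overlapped. VANGL2 rose by 0.39 ± 0.11 (log2 fold change ± standard error) from day 0 to day 2, with adjusted p = 0.00521, and fell by 0.65 on the log2 scale from day 2 to day 4, with adjusted p = 3.32e-05. Adjusted p-values here and below come from edgeR's quasi-likelihood test with Benjamini-Hochberg adjustment over all genes of the fit, and a gene is said to have changed at an adjusted p under 0.05. In KO the values were 174, 174, 186 and 192 CPM on day 0, 216, 237, 243 and 224 CPM on day 2, and 197, 170, 148 and 128 CPM on day 4. The same order held, with log2 fold changes of 0.34 ± 0.11 (adjusted p = 0.0123) and -0.50 ± 0.11 (adjusted p = 0.000501).

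**Figure D1:**
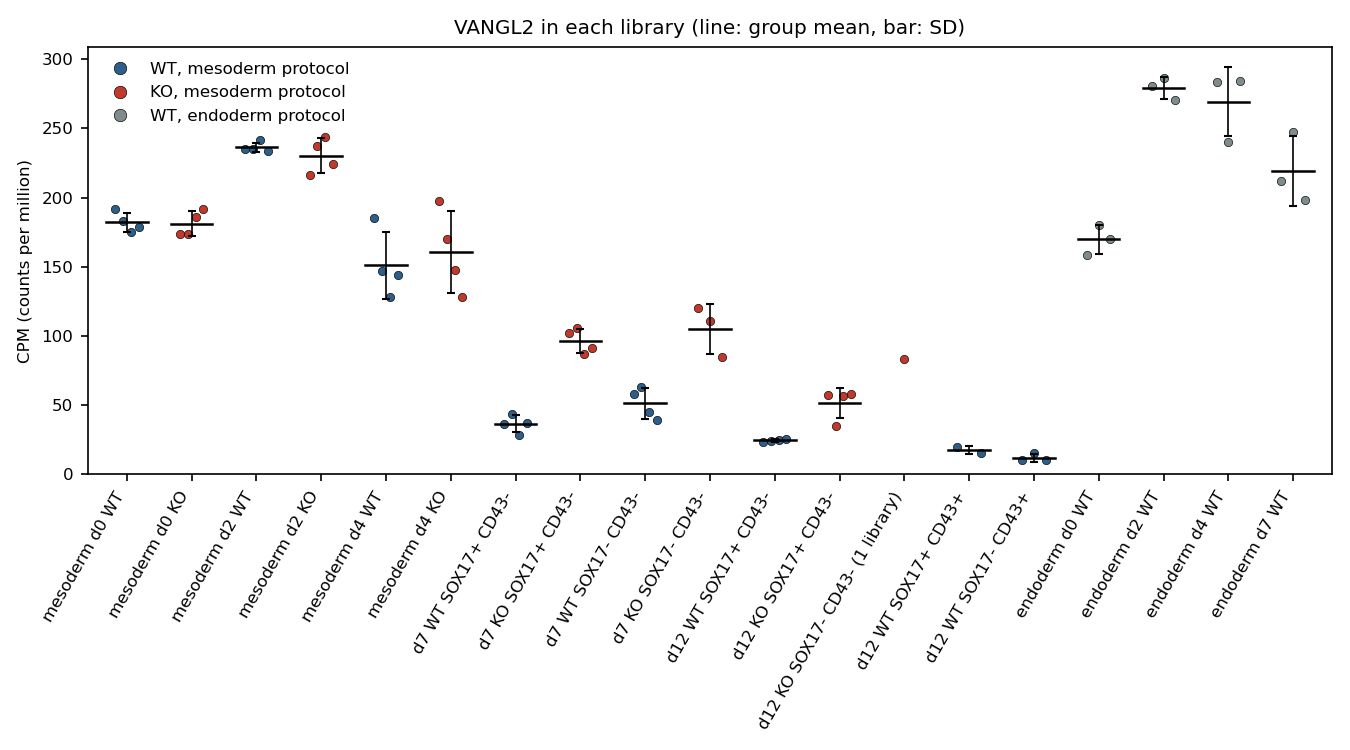
VANGL2 in CPM in each of the 65 libraries, by group; lines are group means and bars SD, blue points WT and red points KO of the mesoderm protocol, grey points WT endoderm. The KO points lie above the WT points in sorted cells of day 7 and day 12 and overlap with them at day 0, 2 and 4.

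In endoderm VANGL2 stayed high. The 3 libraries held 159, 180 and 170 CPM on day 0, 280, 286 and 270 CPM on day 2, 284, 240 and 284 CPM on day 4, and 212, 247 and 198 CPM on day 7. It rose by 0.72 ± 0.10 from day 0 to day 2 (adjusted p = 3.22e-05), and no further step passed, with -0.04 ± 0.10 from day 2 to day 4 (adjusted p = 0.774) and -0.29 ± 0.10 from day 4 to day 7 (adjusted p = 0.051). The latter did pass with limma on the authors' log2 RPKM (adjusted p = 0.0476), without day 4 number 2 (0.0251) and without day 7 number 2 (0.0174). The change from day 0 to day 4 was more upwards in endoderm than in WT mesoderm by 0.94 ± 0.14, with adjusted p = 1.31e-05.

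Sorted WT endothelium held far less VANGL2. The sorted libraries entered the choice of the gene, so the p-values of VANGL2 in this paragraph are not independent of that choice. The SOX17+ libraries of day 7 were at 36.6, 43.4, 28.6 and 37.2 CPM, all below every unsorted library of day 4, a difference of -2.03 ± 0.14 (adjusted p = 1.65e-06, 4.09-fold lower). Day and sorting changed together in this comparison and cannot be told apart. The library numbers of the titles also fall in separate series, 31266 to 31320 at day 4 and 68685 to 68715 in the sorted cells. A difference between the series cannot be told apart from these either. The 4 SOX17+ libraries of day 12 were at 23.6, 24.1, 24.6 and 25.7 CPM, below all of day 7, a change of -0.57 ± 0.17 (adjusted p = 0.0168). Without SOX17+ number 2 of day 7 this step no longer passed (-0.48 ± 0.18, adjusted p = 0.0736). CD43+ cells lay lower still, with 19.5 and 15.7 CPM in the SOX17+ and 10.7, 15.3 and 10.0 CPM in the SOX17- libraries. CD43+ SOX17- cells differed from endothelium by -0.98 ± 0.19 (adjusted p = 5.55e-05), whereas for the 2 CD43+ SOX17+ libraries the difference of -0.42 ± 0.21 did not pass (adjusted p = 0.152). Between both CD43+ fractions the difference of -0.56 ± 0.22 barely passed (adjusted p = 0.0479). It no longer passed with median-of-ratios size factors, DESeq2, limma or a block for the replicate number or for the library run (adjusted p = 0.0529 to 0.109). A library run is a set of neighbouring library numbers. Nor did the difference pass without CD43+ SOX17+ number 1 or 2 (0.315 and 0.0599) or SOX17- number 1 or 3 (0.132 and 0.186). In bulk RNA, fewer cells of a type and less RNA per cell cannot be told apart, here and in all results below. Endoderm of day 7 held more VANGL2 than SOX17+ endothelium of the same day by 2.60 ± 0.13 (adjusted p = 3.96e-09, 6.08-fold).

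In sorted cells VANGL2 was higher in KO, the contrast by which it was picked. KO SOX17+ cells of day 7 held 102, 105, 87.2 and 91.4 CPM, each above the highest WT library at 43.4 CPM, and the log2 fold change was 1.42 ± 0.17 (2.68-fold). KO SOX17- cells of day 7 held 120, 110 and 84.7 CPM against 58, 63.3, 45.1 and 39 CPM in WT, 1.04 ± 0.17 higher (2.05-fold). KO SOX17+ cells of day 12 held 57.1, 34.9, 56.4 and 57.9 CPM against 23.6 to 25.7 CPM in WT, 1.08 ± 0.17 higher (2.11-fold). No WT library reached the lowest KO library in any of the 3 comparisons. KO number 2 of day 12, at 34.9 CPM, lay apart from the other 3, and without it the log2 fold change was 1.22 ± 0.16. The single KO library of CD34+ CD43- SOX17- cells of day 12 held 83.6 CPM and has no WT group beside it. KO levels in sorted cells lay below those of KO cells at day 4 in every library. The 3 comparisons use different libraries but the same pair of lines.

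Before sorting, where the rule used no value, the genotypes did not differ detectably in VANGL2. The log2 fold change KO against WT was 0.00 ± 0.11 at day 0, -0.04 ± 0.11 at day 2 and 0.10 ± 0.11 at day 4. Confidence intervals from these standard errors ran from -0.22 to 0.22, from -0.26 to 0.18 and from -0.12 to 0.32. RUNX1 itself did not separate these unsorted groups. No gene of the 21612 tested passed on these days by edgeR (0% of genes), with 146, 973 and 987 at an unadjusted p under 0.05, while DESeq2 called 0, 15 and 2 and limma 0, 0 and 1. Hence 0 of the 10 genes were called on each day, against a background of 0%. In KO SOX17+ cells VANGL2 was lower on day 12 than on day 7 (log2 fold change -0.92 ± 0.16), with no overlap of libraries, which is given as a description because these values chose the gene. The WT sorted libraries entered the same choice, so the tests of VANGL2 that use sorted cells, above and below, are not independent of it.

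The other 9 genes are set beside VANGL2 in sorted cells (plot of KO against WT). VANGL2 was chosen for its high value in KO there, so that the others lie closer to 0 follows from the choice. None of the 9 was called in SOX17+ cells of day 7, in SOX17- cells of day 7 or in SOX17+ cells of day 12, where 0.0566%, 0.0087% and 0.187% of all 22978 tested genes were called. With so few genes called anywhere, nothing is read from this count. Their log2 fold changes ran from -0.34 ± 0.25 (CELSR2) to 0.27 ± 0.28 (PRICKLE2) in SOX17+ cells of day 7, from -0.20 ± 0.14 (SCRIB) to 0.44 ± 0.30 (PRICKLE2) in SOX17- cells, and from -0.09 ± 0.25 (CELSR2) to 0.19 ± 0.19 (CELSR3) at day 12. Their medians were 0.00, 0.13 and 0.05, beside 0.01, 0.00 and 0.00 over all tested genes. VANGL1 lay 0.21 ± 0.12 higher in KO SOX17+ cells of day 7, with 74.5, 69.7, 67.1 and 69.7 CPM against 61.1, 62.7, 60.04 and 62.4 CPM in WT. CELSR1 was at 13.4, 15, 13.4 and 12.6 CPM in WT and 15.9, 15.2 and 17.2 CPM in KO SOX17- cells of day 7 (0.25 ± 0.19). The genotypes did not overlap in either case, but neither gene was called. How many of all genes separate in this way was not counted, so nothing is read from it. Of the 38 genes of a wider planar cell polarity list (Wnt ligands, Frizzled and Dishevelled proteins, cytoskeletal effectors and others), 0 were called in any of the 6 comparisons of KO with WT.

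**Figure D2:**
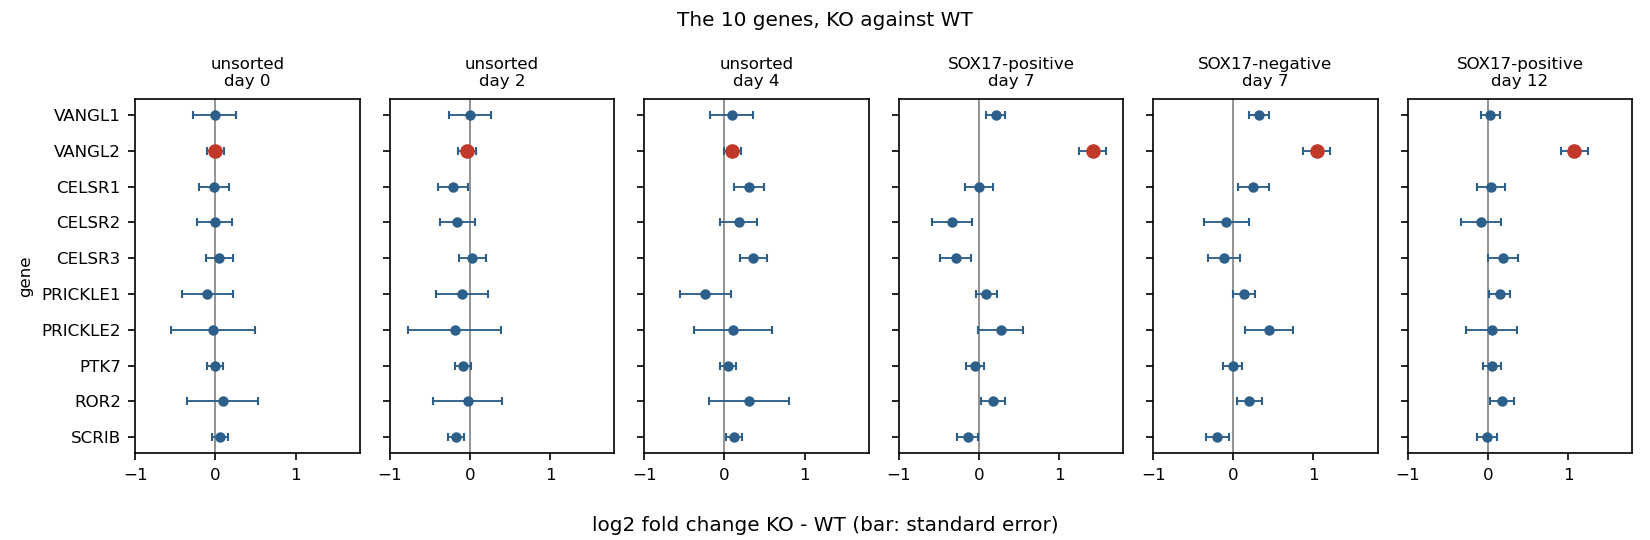
Log2 fold change of KO against WT for the 10 genes in 3 unsorted and 3 sorted comparisons, with bars for the standard error and VANGL2 in red. VANGL2, chosen for its difference in sorted cells, lies at 1.42, 1.04 and 1.08 there and within 0.10 of 0 before sorting. The other genes, not chosen in this way, stay within 0.44 of 0.

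Markers of other cell types were set beside this difference. The summed level of 8 haematopoietic markers (PTPRC, SPN, ITGA2B, GATA1, SPI1, MYB, GFI1B and KLF1) was 48.8 to 63.3 CPM in WT and 26.5 to 46.2 CPM in KO SOX17+ cells of day 7, 57.5 to 85.7 and 48.1 to 57.5 CPM in SOX17- cells, and 22.8 to 38.3 and 4.94 to 6.68 CPM in SOX17+ cells of day 12. The sums did not overlap in SOX17+ cells on either day and overlapped in SOX17- cells. On day 7 most of the sum was MYB, a factor of blood progenitors, with a mean of 48.2 CPM in WT SOX17+ cells and 30 in KO, while the means of ITGA2B (3.03 in WT, 3.43 in KO) and GFI1B (1.05 and 1.32) were not lower in KO. On day 12 the means of MYB (20.9 in WT, 2.72 in KO), SPN (2.42 and 0.341) and SPI1 (2.07 and 0.171) were all lower in KO. PTPRC was at 0 in both KO groups of day 7 and in WT SOX17- cells, and KLF1 in both genotypes at day 12. CD43+ SOX17- cells, with 1065 to 1312 CPM of these markers, were the lowest group for VANGL2. Summed mesenchymal markers (8 genes with COL1A1, COL3A1 and LUM among them) were 161 to 401 CPM in WT and 133 to 321 CPM in KO SOX17+ cells of day 7, 627 to 1177 and 567 to 953 CPM in SOX17- cells, and 216 to 355 and 223 to 397 CPM on day 12, with no marker at 0. The sums of the genotypes overlapped in all 3 comparisons, and most of each sum was COL3A1. In SOX17+ cells of day 7 LUM did not overlap, at 0.881 to 1.51 CPM in WT and 0.445 to 0.878 CPM in KO, while the other markers did. The 5 pluripotency markers (POU5F1, NANOG, SOX2, PRDM14 and ZFP42) summed to at most 5.97 CPM in any CD43- sorted library of day 7, against 959 to 1520 CPM in WT at day 0 where VANGL2 was high. The part of other cells in the VANGL2 difference was not tested.

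The order of the groups for VANGL2 ran from endoderm of day 2 (279 ± 7.91 CPM) and day 4 (269 ± 25.2) over WT and KO of day 2 (236 ± 3.54 and 230 ± 12.5) and endoderm of day 7 (219 ± 25.4) to WT and KO of day 0 (182 ± 7.09 and 181 ± 8.99). Endoderm of day 0 (170 ± 10.7) and unsorted KO and WT of day 4 (161 ± 29.6 and 151 ± 24.1) followed. Next came KO SOX17- and SOX17+ cells of day 7 (105 ± 18.2 and 96.5 ± 8.66), the single KO library of day 12 (83.6), KO SOX17+ cells of day 12 (51.6 ± 11.2), and WT SOX17- and SOX17+ cells of day 7 (51.3 ± 11.2 and 36.5 ± 6.06). WT endothelium of day 12 (24.5 ± 0.891), CD43+ SOX17+ (17.6 ± 2.70) and CD43+ SOX17- cells (12.0 ± 2.86) closed it. Neighbours in this order overlapped in single libraries, except where endoderm of day 7 met WT of day 0, where unsorted WT of day 4 met sorted KO cells, on either side of the single KO library, and from WT SOX17+ cells of day 7 downwards. The WT SOX17+ and SOX17- fractions of day 7 overlapped, with a difference of -0.50 ± 0.16 that did not pass (adjusted p = 0.153), and in KO it was -0.11 ± 0.17.

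Compared per length, on the authors' RPKM, VANGL2 was the more abundant VANGL gene in early cells (plot of RPKM by group). In WT SOX17+ endothelium it was close to VANGL1 on day 7 and lower on day 12. Of WT endothelium, only the SOX17+ groups are set out here. At day 0 in WT, the mean was 34.1 RPKM for VANGL2 and 4.86 for VANGL1. In WT SOX17+ cells of day 7 both were near 7, with 6.83 and 6.79 RPKM, and at day 12 VANGL2 was at 4.58 and VANGL1 at 9.01 RPKM. In KO SOX17+ cells VANGL2 was at 18.1 RPKM on day 7 against 7.75 for VANGL1, and at 9.66 against 9.19 on day 12. The latter pair differed by less than the SD of VANGL2 in that group, 2.09 RPKM. PTK7 ranged from 8.79 to 45.9 RPKM over the 19 groups and SCRIB only from 8.98 to 14.3 RPKM. ROR2 covered the widest range, from 0.525 to 77.6 RPKM, and the means of the CELSR genes and PRICKLE2 were at most 6.66 RPKM.

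**Figure D3:**
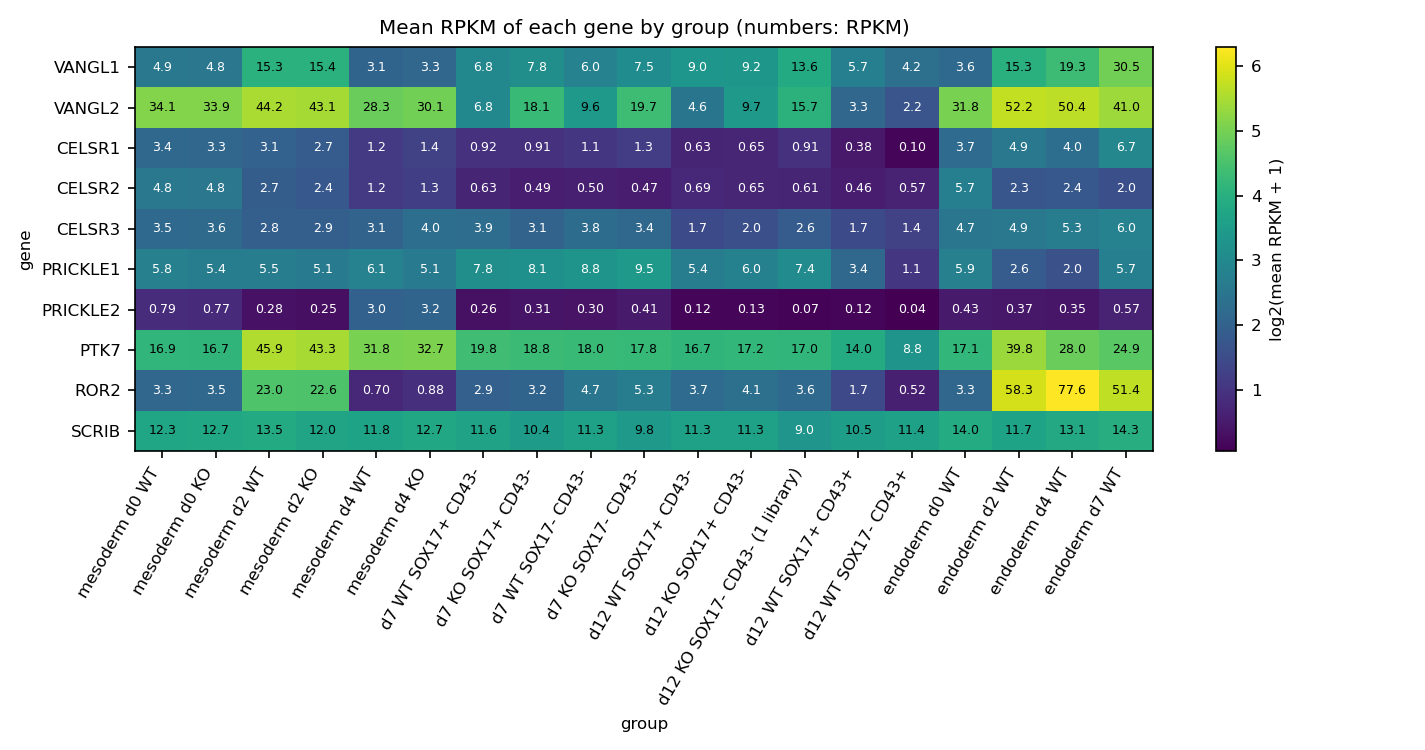
Mean RPKM of the 10 genes (rows) in the 19 groups (columns), printed in each cell, with colour for log2 of the mean RPKM plus 1. VANGL2 falls from 34.1 RPKM at day 0 to 6.83 in WT SOX17+ cells of day 7 and is at 18.1 in KO, while SCRIB stays between 8.98 and 14.3.

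VANGL1 rose and fell more steeply than VANGL2 in early mesoderm. WT libraries held 21.2, 60.3, 43.3 and 51.3 CPM on day 0, 144, 123, 163 and 127 CPM on day 2, and 29.7, 30.5, 25.2 and 28.6 CPM on day 4. Day 0 number 1 was the lowest of its group, in KO as well, at 18.5 CPM. The changes were 1.67 ± 0.27 (adjusted p = 3.19e-05) and -2.28 ± 0.28 (adjusted p = 7.15e-07) in WT, and 1.69 ± 0.27 and -2.20 ± 0.28 in KO. Afterwards VANGL1 went the other way from VANGL2. SOX17+ cells of day 7 held 1.13 ± 0.09 more than unsorted cells of day 4 (adjusted p = 2.34e-06), and from day 7 to day 12 VANGL1 rose by 0.41 ± 0.12 in WT (adjusted p = 0.0145). That step no longer passed without day 12 number 4 (0.36 ± 0.13, adjusted p = 0.0524) and did not pass in KO (0.23 ± 0.12, adjusted p = 0.221). In endoderm it climbed at each step, from 34.2, 35.9 and 27.4 CPM on day 0 to 267, 291 and 271 CPM on day 7, by 2.09 ± 0.11, 0.35 ± 0.11 and 0.67 ± 0.11. The middle step no longer passed without day 2 number 3 or day 4 number 2 (adjusted p = 0.0555 and 0.0808). The change from day 0 to day 4 was more upwards in endoderm than in mesoderm by 3.05 ± 0.30 (adjusted p = 1.04e-07).

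The 3 CELSR genes encode large cadherins that span the membrane several times. They lie on chromosome 22 (CELSR1, ENSG00000075275, chr22:46360834-46537170, minus), chromosome 1 (CELSR2, ENSG00000143126, chr1:109250019-109275750, plus) and chromosome 3 (CELSR3, ENSG00000008300, chr3:48636469-48662915, minus). CELSR1 ran closest to VANGL2 of all members. WT libraries held 61.6, 36.3, 35.8 and 39.3 CPM on day 0, 37.1, 37.1, 42.1 and 40.9 at day 2, and 19, 14.3, 13 and 13.7 at day 4. It fell from day 2 to day 4 by 1.39 on the log2 scale in WT (adjusted p = 3.72e-06) and by 0.86 in KO (adjusted p = 0.000684), and all day 4 libraries lay below all day 2 libraries in both. In WT SOX17+ endothelium of day 12 it was at 6.53 to 8.90 CPM and in CD43+ SOX17- cells at 0.951, 1.27 and 1.45 CPM, a difference of -2.67 ± 0.24 (adjusted p = 1.52e-10). Endoderm of day 7 held 76.5, 85.0 and 94.5 CPM, 2.87 ± 0.14 above SOX17+ endothelium (adjusted p = 2.81e-09). The fall from day 7 to day 12 in WT endothelium, -0.54 ± 0.18 with adjusted p = 0.0347, ended without any one of the 4 day 12 libraries or of day 7 numbers 2 and 4 (adjusted p = 0.0544 to 0.157). In KO, -0.49 ± 0.18 did not pass (adjusted p = 0.0661) but did with the replicate block (adjusted p = 0.0423). The rise in endoderm from day 0 to day 2 (0.42 ± 0.14, adjusted p = 0.0232) ended without day 0 number 1 or 2 or day 2 number 2 or 3 (adjusted p = 0.0529 to 0.0843), and that from day 4 to day 7 was 0.76 ± 0.14 (adjusted p = 0.00172).

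CELSR2 fell through the mesoderm protocol. WT libraries held 79.2, 54.4, 50.6 and 54.8 CPM on day 0, 33.3, 18.5, 42.9 and 38.4 at day 2, and 16.8, 15.7, 12.4 and 12.8 at day 4, with no overlap between days. The steps were -0.83 ± 0.22 (adjusted p = 0.00417) and -1.21 ± 0.23 (adjusted p = 0.000157) in WT and -0.99 ± 0.22 and -0.86 ± 0.23 in KO. In sorted cells it lay between 4.67 and 13.5 CPM in every library and no comparison between sorted groups called it. CELSR3 was flatter, at 31.6 to 76.9 CPM in the unsorted mesoderm libraries. It fell from day 7 to day 12 in SOX17+ cells, from 47.6, 54.9, 58.5 and 53.8 CPM to 30.8, 25.5, 19.4 and 21.3 CPM in WT (-1.14 ± 0.19, adjusted p = 9.08e-05). The fall was -0.67 ± 0.19 in KO (adjusted p = 0.0169), where it ended without day 7 number 2 or 4 or day 12 number 4 (adjusted p = 0.0509 to 0.0982). The rise of CELSR3 at day 4 in KO (0.49 ± 0.17, adjusted p = 0.0185) ended without KO number 4 of day 4 or number 3 of day 2 (adjusted p = 0.12 and 0.073), and in WT the step was 0.16 ± 0.17 (adjusted p = 0.455).

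PRICKLE1 (ENSG00000139174, chr12:42456757-42590355, minus) and PRICKLE2 (ENSG00000163637, chr3:64092242-64445476, minus) encode cytoplasmic LIM-domain partners of the VANGL proteins. An antisense gene shares 22.5% of the exon bases of PRICKLE1 (AC079601.1) and PRICKLE2-AS1 shares 22.8% of those of PRICKLE2. Whether counting used strand is not stated, so reads of these pairs cannot be told apart. PRICKLE2 was the member with the sharpest peak at day 4. WT libraries held 27.9, 6.56, 7.12 and 5.04 CPM on day 0, 4.04, 3.39, 4.36 and 4.80 at day 2, and 59.8, 41.1, 23.2 and 52.9 at day 4. KO libraries held 63.3, 55.1, 27.9 and 42.8 CPM on day 4 after 2.55 to 5.07 CPM on day 2. PRICKLE2 rose from day 2 to day 4 by 3.41 ± 0.57 in WT (adjusted p = 3.59e-05) and 3.71 ± 0.57 in KO (adjusted p = 1.43e-05). The lowest WT library of day 4, number 3, was also lowest in summed mesenchymal markers (857 CPM), but number 2, with the highest sum (6011 CPM), was not highest in PRICKLE2. In KO the lowest library for PRICKLE2, number 3, had a sum of 3116 CPM, and the lowest sum was in number 4 (1500 CPM). The part of these cells was not tested. The preceding fall from day 0, -1.49 ± 0.55 in WT (adjusted p = 0.0324) and -1.64 ± 0.55 in KO (adjusted p = 0.0194), rested on day 0 number 1. Without that library it was -0.56 ± 0.49 (adjusted p = 0.371) and -0.65 ± 0.48 (adjusted p = 0.303). It also ended without any one of the WT day 2 libraries (adjusted p = 0.0506 to 0.0713), without KO day 2 number 2 or 3 (0.0563 and 0.0552) and with limma on log2 RPKM (0.208 in WT, 0.191 in KO). SOX17+ cells of day 7 held 3.06 to 5.39 CPM in WT, 3.49 lower on the log2 scale than day 4 (log2 fold change -3.49 ± 0.30, adjusted p = 5.47e-06).

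**Figure D4:**
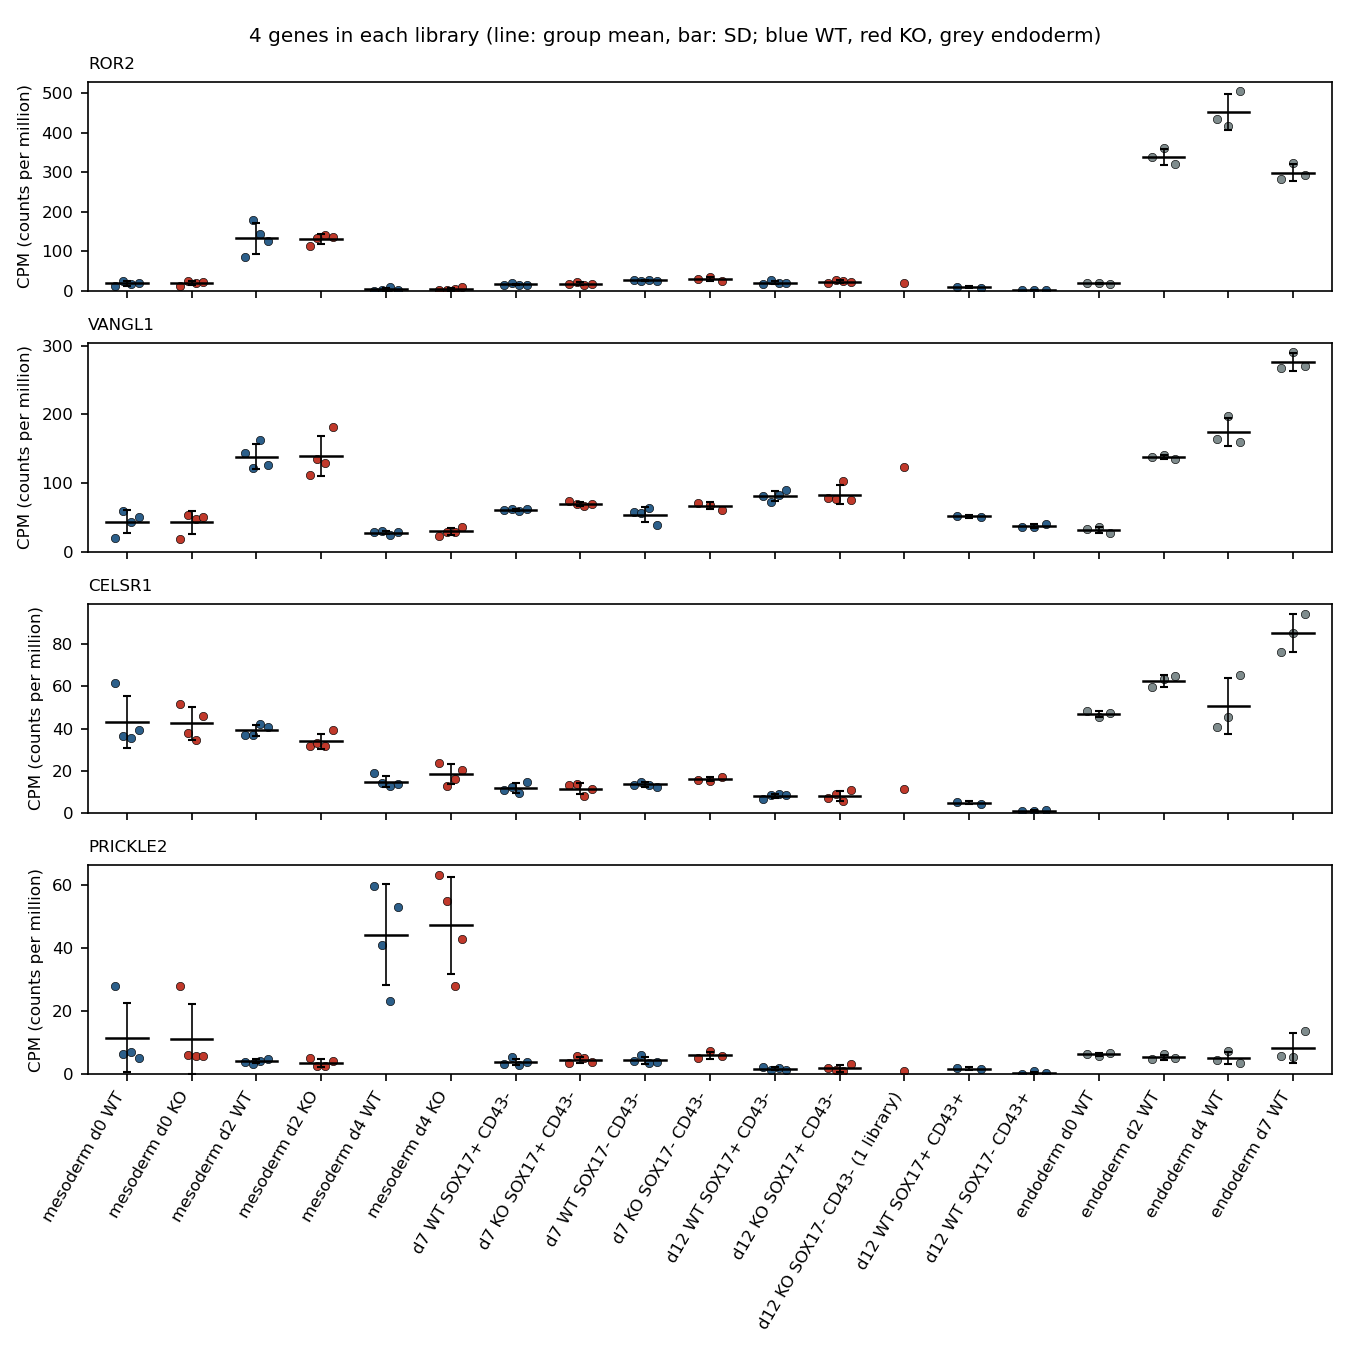
CPM of ROR2, VANGL1, CELSR1 and PRICKLE2 in each library, by group; lines are group means and bars SD, blue WT, red KO, grey endoderm. ROR2 and VANGL1 peak at day 2 of mesoderm and are highest in endoderm, PRICKLE2 is highest at day 4, and CELSR1 is below 1.5 CPM in CD43+ SOX17- cells.

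PRICKLE1 kept 18.7 to 79.0 CPM in unsorted mesoderm, with no change called between these days in WT or KO. It was low in CD43+ SOX17- cells, at 5.94, 9.93 and 10.2 CPM, against 52.2, 39.5, 46.2 and 40.3 CPM in WT endothelium of day 12 (-2.31 ± 0.16, adjusted p = 6.1e-13). The 2 CD43+ SOX17+ libraries lay between, at 32.9 and 22.6 CPM (-0.63 ± 0.17 against endothelium, adjusted p = 0.00542), a call that ended without number 2 (adjusted p = 0.16). In endoderm PRICKLE1 fell by 1.15 on the log2 scale from day 0 to day 2 (adjusted p = 5.82e-05) and rose by 1.49 ± 0.17 from day 4 to day 7 (adjusted p = 3.72e-05). It was the only member lower in endoderm than in SOX17+ endothelium at day 7 (-0.43 ± 0.12, adjusted p = 0.00505).

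PTK7 (ENSG00000112655, chr6:43076268-43161719, plus) encodes a catalytically inactive receptor kinase. WT libraries held 193, 138, 139 and 141 CPM on day 0, 406, 418, 427 and 407 CPM on day 2, and 280, 279, 289 and 301 CPM on day 4. Day 2 lay above both other days in every library, and PTK7 rose by 1.45 ± 0.10 (adjusted p = 2.3e-10) and fell by 0.53 on the log2 scale (adjusted p = 0.00019). In KO the steps were 1.37 ± 0.10 and -0.39 ± 0.10, and in endoderm it rose by 1.22 ± 0.09 at day 2 and fell by 0.49 on the log2 scale by day 4 (adjusted p = 4.43e-08 and 0.00033). CD43+ SOX17- cells held 88.8, 86.6 and 62.6 CPM, below the 135 to 161 CPM of endothelium (-0.88 ± 0.12, adjusted p = 2.76e-07).

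ROR2 moved furthest of the 10 genes. WT libraries held 12.5, 25.3, 18.8 and 19.8 CPM on day 0, 86.0, 180, 144 and 125 CPM on day 2, and 1.16, 2.41, 10.1 and 2.54 CPM on day 4. No days overlapped. It rose by 2.82 ± 0.46 (adjusted p = 3.12e-05) and fell by 5.03 on the log2 scale (adjusted p = 7.17e-08) in WT, and the steps in KO were 2.70 ± 0.46 and -4.69 ± 0.51. WT number 3 of day 4, at 10.1 CPM, stood above the other 3. In endoderm the level went from 19.3, 20.1 and 18.3 CPM on day 0 to 338, 360 and 320 CPM on day 2 (4.14 ± 0.11, adjusted p = 2.2e-12), reached 434, 418 and 504 CPM on day 4 and was 282, 322 and 292 CPM on day 7. The change from day 0 to day 4 was more upwards in endoderm than in mesoderm by 6.77 ± 0.59 (adjusted p = 1.6e-08).

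ROR2 was also the only member called between the SOX17 fractions of day 7. In WT, SOX17+ libraries held 16.5, 19.5, 15.9 and 15.5 CPM and SOX17- libraries 27.5, 26.7, 29 and 25.7 CPM (-0.69 ± 0.15, adjusted p = 0.0104), and in KO 18.1, 23.7, 16.1 and 16.8 CPM stood against 31.1, 36.7 and 25.6 CPM (-0.73 ± 0.16, adjusted p = 0.0212). The fractions did not overlap in either genotype. The WT call ended without SOX17+ number 4 (adjusted p = 0.0586). The KO call ended without SOX17+ number 1, 3 or 4 or SOX17- number 1 or 2 (adjusted p = 0.0684 to 0.238). Without WT SOX17- number 4, which stood apart, ROR2 was at -0.72 ± 0.16 (adjusted p = 0.0208). Summed mesenchymal markers, at 627 to 1177 CPM in WT SOX17- and 161 to 401 CPM in WT SOX17+ cells, moved with this difference. Most of the sum was COL3A1, with means of 758 and 209 CPM. COL3A1, LUM, PDGFRA and TWIST1 were higher in WT SOX17- cells with no overlap of libraries. COL1A1 and POSTN had higher means there, but their libraries overlapped. PDGFRB (means of 2.17 CPM in SOX17- and 1.53 CPM in SOX17+ cells) and DCN (3.67 and 3.63 CPM) overlapped widely. The part of these markers in the ROR2 difference was not tested. In CD43+ SOX17- cells ROR2 was at 2.61, 2.77 and 3.77 CPM, 2.75 lower on the log2 scale than endothelium (log2 fold change -2.75 ± 0.19, adjusted p = 5.61e-13).

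SCRIB (ENSG00000180900, minus strand of chromosome 8) encodes a scaffold protein of cell polarity that also binds VANGL2. It lay between 51.4 and 96.8 CPM in all 65 libraries. Of the 21 comparisons tested it was called in 1, higher in endoderm of day 7 than in SOX17+ endothelium (0.31 ± 0.12, adjusted p = 0.0278), and this ended without endoderm number 1 or 2 or SOX17+ number 1 or 3 (adjusted p = 0.0698 to 0.104). ROR2 was called in 15 of these 21 comparisons, VANGL1 in 14, VANGL2 in 12, PRICKLE2 in 11, CELSR1 and PTK7 in 10 each, PRICKLE1 in 9, CELSR2 in 8 and CELSR3 in 4. Many of these comparisons share libraries, so the counts are not independent. For VANGL2, the calls that use sorted cells also rest on values that chose it.

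The 10 genes did not move as 1 block, and the wider list of 38 genes did not either (plot of log2 fold changes). From day 0 to day 2 in WT mesoderm 4 members rose and 2 fell, where 45.1% of all genes were called, 22.2% upwards and 22.9% downwards, and their median was 0.03 beside 0.00 over all genes. In the wider list 11 rose and 11 fell, led by the ligands WNT5A (8.50 ± 0.69) and WNT5B (6.83 ± 0.47), the Dishevelled-binding NKD1 (6.92 ± 0.60) and the glypican GPC4 (-3.14 ± 0.24). WNT5A went from 2.39 ± 1.74 to 847 ± 76.3 CPM, on the same days on which its receptor ROR2 rose. From day 2 to day 4, 1 member rose and 6 fell (51.4% of genes called, 25.9% upwards and 25.5% downwards, medians -0.59 and -0.01), and 14 of the wider list rose and 10 fell, with FAT4, an atypical cadherin, at 5.43 ± 0.44, FZD2 at 3.42 ± 0.36, FJX1 at 3.27 ± 0.40 and CTHRC1 at 3.10 ± 0.27. In KO the counts were 4 up and 2 down (43.3% of genes called, 21.6% upwards and 21.7% downwards) and then 2 up and 6 down (50.5%, 26% upwards and 24.5% downwards), beside 10 and 9 and then 13 and 8 in the wider list.

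**Figure D5:**
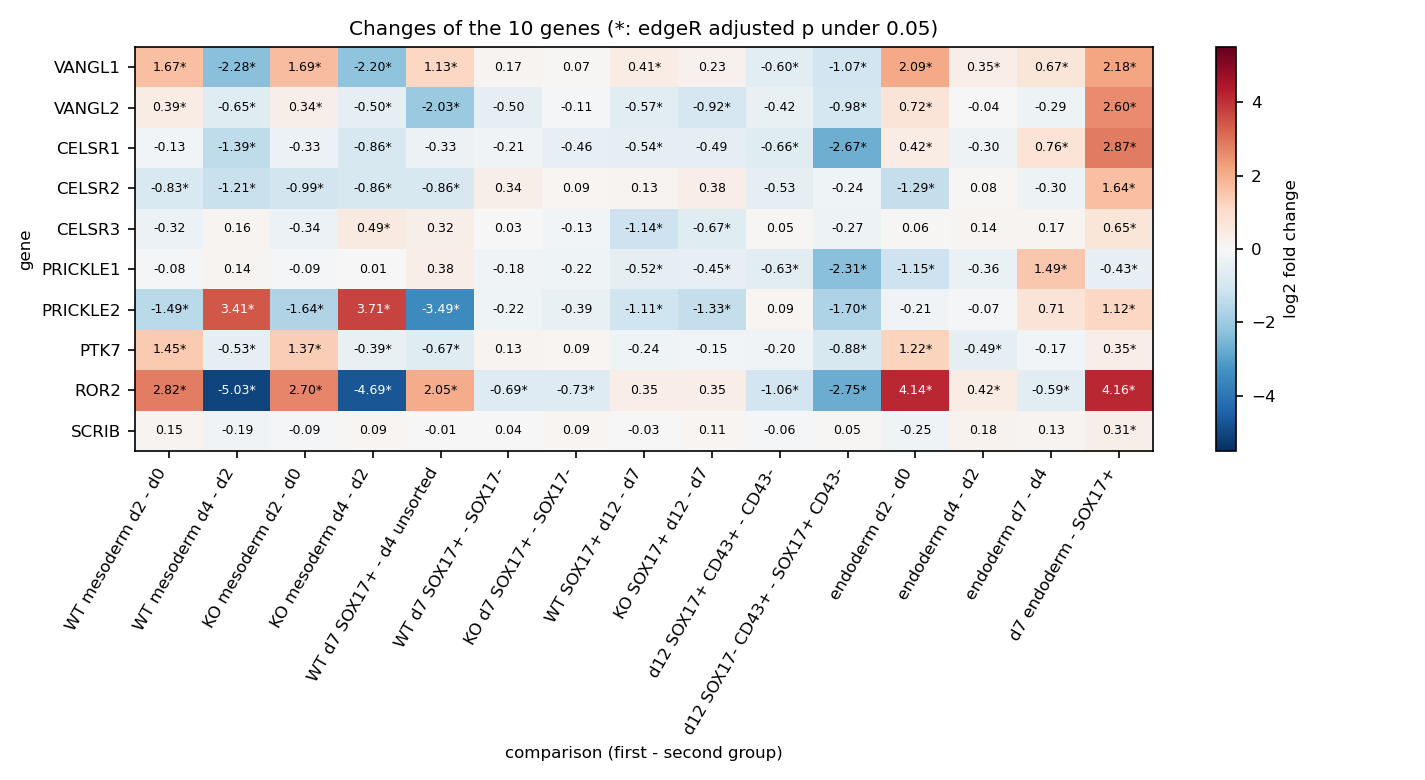
Log2 fold changes of the 10 genes (rows) in 15 comparisons (columns, first minus second group), with an asterisk at an edgeR adjusted p under 0.05. Both comparisons of CD43+ cells with endothelium at day 12 hold mostly negative values, and in endoderm against SOX17+ endothelium 9 genes are higher and 1 is lower.

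In endoderm 5 members rose and 2 fell by day 2 (55.5% of genes called, 28.7% upwards and 26.8% downwards). From there 2 rose and 1 fell by day 4 (42.4%, 22.2% and 20.2%), and 3 rose and 1 fell by day 7 (21.3%, 11.2% and 10.1%). The wider list gave 15 and 10, 14 and 6, and 2 and 7. At day 2 FJX1 (-3.85 ± 0.32), NKD1 (3.42 ± 0.30), FZD2 (2.80 ± 0.16) and ROR1 (-2.75 ± 0.18) led it, and WNT5A fell by 3.2 on the log2 scale from day 2 to day 4 (adjusted p = 5.85e-06), so that ROR2 was highest where WNT5A was at 0.602 ± 0.177 CPM. Against mesoderm, the change from day 0 to day 4 was more upwards for 5 members (VANGL1, VANGL2, CELSR1, CELSR2 and ROR2) and more downwards for 2, PRICKLE1 by -1.57 ± 0.40 and PRICKLE2 by -2.20 ± 0.63, where 40.4% of genes were called, 20.5% upwards and 19.9% downwards. CELSR2 (0.82 ± 0.29, adjusted p = 0.0312) ended with limma (adjusted p = 0.129) and without any one of 6 libraries (adjusted p = 0.0518 to 0.0768), mesoderm day 0 number 1 among them (0.0569). For the change from day 0 to day 2, 0 of the 10 were called where 29.5% of genes were (15.5% upwards, 13.9% downwards), but 5 were without mesoderm day 0 number 1 (VANGL1, PRICKLE1, PTK7, ROR2 and SCRIB).

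Sorted WT endothelium of day 7 against unsorted cells of day 4 had 2 members higher and 4 lower (62.8% of genes called, 31.7% higher and 31.1% lower). VANGL2, which sorted values chose, is among the lower ones. Leaving VANGL2 out, 2 of 9 were higher and 3 lower. In the wider list 9 were higher and 15 lower, with NKD1 at -6.31 ± 0.49, WNT5A at -5.14 ± 0.45, FZD7 at -5.05 ± 0.29 and GPC4 at -4.17 ± 0.37. Between SOX17 fractions of day 7, 1 of 10 was called in each genotype, where 1.6% of genes were in WT (0.927% higher, 0.67% lower) and 0.67% in KO (0.348% higher, 0.322% lower), and 0 of the 38. From day 7 to day 12, 1 member rose and 5 fell in WT (17.8% of genes called, 8.57% upwards and 9.23% downwards). In KO 0 rose and 4 were lower (13.3%, 6% and 7.29%). VANGL2 is counted in each although sorted values chose it. Leaving VANGL2 out, 1 rose and 4 fell in WT, and 0 rose and 3 fell in KO. Over all 10 genes, the count in WT was 3 without SOX17+ number 2 of day 7, and that in KO was 2 without number 4 of day 7. In the wider list 5 rose and 7 fell in WT and 0 rose and 5 fell in KO, with GPC4 at -1.70 ± 0.37 and WNT5A at -1.04 ± 0.29 in WT. WNT5A was at -1.07 ± 0.28 in KO, where its call ended without day 7 number 1 (adjusted p = 0.0584).

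CD43+ SOX17- cells had 7 of 10 members lower than endothelium and 0 higher, where 66.2% of genes were called, 32.3% higher and 33.9% lower. The members' median was -1.02 beside -0.02 over all genes, and CELSR2, CELSR3 and SCRIB were not called. VANGL2, which sorted values chose, is counted here and in the comparisons below. Leaving VANGL2 out, 6 of 9 were lower than in endothelium. In the wider list 20 were lower and 4 higher, with ROR1, the other WNT5A receptor of its family, at -5.26 ± 0.36, FAT4 at -5.00 ± 0.36, its ligand DCHS1 at -3.40 ± 0.25 and DACT1 at -2.68 ± 0.28. The 2 CD43+ SOX17+ libraries, in which endothelial markers summed to 5510 and 5558 CPM, had 4 members lower (26.5% of genes called, 15.5% higher and 10.9% lower) and the count was 2 without number 2. Their CELSR1 call (-0.66 ± 0.23, adjusted p = 0.0359) ended with no filter on low counts, limma or the library run block (adjusted p = 0.053 to 0.0748) and without either CD43+ library (0.0761 and 0.209) or any one of endothelium numbers 2, 3 and 4 (0.0527 to 0.0623). Between both CD43+ fractions 7 members were lower in the SOX17- one (37.5% of genes called, 14.6% higher and 22.9% lower), and 4 without CD43+ SOX17+ number 1. Leaving VANGL2 out, 6 of 9 were lower between these fractions. Beside these differences the endothelial markers went from 10748 to 13614 CPM in endothelium to 116 to 298 CPM in CD43+ SOX17- cells. Their part in these results was not tested. Endoderm of day 7 held more of 9 members and less of 1 than SOX17+ endothelium (71.6% of genes called, 35.3% higher and 36.3% lower), with a median of 1.38 beside -0.04 over all genes. Leaving VANGL2 out, 8 of 9 were higher and 1 lower, with a median of 1.12. In the wider list 17 were higher and 13 lower, with GPC4 at 9.09 ± 0.21, FAT4 at -8.55 ± 0.33, FZD7 at 6.94 ± 0.16 and WNT5A at -5.61 ± 0.32. Protocol, sorting and the series of library numbers coincide there and cannot be told apart.

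Over the 19 group means of log2 CPM, the genes whose pattern was most like that of VANGL2 among 27209 compared were ERVH48-1 (Pearson's r 0.9598), SPRY4-AS1 (0.9437), CACNA2D2 (0.942), ADGRB2 (0.942) and ENSG00000256304 (0.9391), which has no symbol here. These correlations are a description over groups that share the line, protocols and days. In SOX17+ cells of day 7 ERVH48-1 was at 49.2 ± 8.87 CPM in the WT group and 45.1 ± 10.3 CPM in KO, CACNA2D2 at 3.51 ± 0.724 and 3.73 ± 1.10, ADGRB2 at 1.05 ± 0.227 and 1.51 ± 0.665, and ENSG00000256304 at 4.48 ± 1.16 and 3.97 ± 0.559 CPM. In SOX17+ cells of day 12 the WT and KO values were 15.1 ± 4.59 and 23.2 ± 5.84 CPM for ERVH48-1, 3.22 ± 0.612 and 3.70 ± 0.484 for CACNA2D2, 0.357 ± 0.227 and 0.632 ± 0.260 for ADGRB2, and 1.62 ± 0.517 and 2.22 ± 0.635 for ENSG00000256304. These values are a description, since the genes were chosen for their likeness. SPRY4-AS1 was near the limit of counting, at no more than 1.32 CPM in any group mean, with 0.194 ± 0.203 (WT) and 0.482 ± 0.348 CPM (KO) in SOX17+ cells of day 7 and 0.134 ± 0.0856 and 0.186 ± 0.0847 CPM on day 12. Among the members CELSR1 was closest to VANGL2 (0.9151), followed by CELSR3 (0.7775), PTK7 (0.7496) and CELSR2 (0.7429). PRICKLE2 (0.6281), ROR2 (0.5767) and SCRIB (0.513) lay between, and VANGL1 (0.3254) and PRICKLE1 (0.1875) were least like it.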

How the data were processed

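RNA was sequenced from 65 libraries (TruSeq). The authors deposited a table of raw fragment counts per Ensembl gene and a table of log2 RPKM (log2 of RPKM plus 1), per the file headers and values. The submitters' processing notes name cutadapt 1.18, featureCounts, R 3.2.2 and GRCh38, with no roles. The aligner and the annotation release were not given in the sources used here. Symbols came from GENCODE 29 (58039 of 58302 genes) and promoters from RefSeq GRCh38.p14. Counts were tested with edgeR 4.0.16 (quasi-likelihood, TMM, filterByExpr with minimum count 10 and total 15, R 4.3.3) in 6 fits, each of the libraries a comparison concerns and those that share its spread, at an adjusted p under 0.05. The scripts were tested on simulated data.

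The members and lists were chosen with earlier results of these data known. All 10 genes are named; of the wider list, up to 4 called genes of largest absolute log2 fold change per comparison, some of them left out for length; and the 5 genes most like VANGL2. KO samples of day 2 and day 4 were grouped by title. The single KO SOX17- library of day 12 entered no test. Endoderm day 4 number 3 has library number 68684, next to the sorted libraries, while numbers 1 and 2 of its group have 32003 and 32005. Alternatives were DESeq2 1.42.0, limma 3.58.1 on log2 RPKM, other size factors, no filter, replicate or library run blocks, and leaving out each library, the last chosen after seeing the data for the comparison of endoderm with mesoderm. Replicate numbers paired libraries (every correlation of deviations over 0.1) in KO against WT of day 0 (0.232 to 0.774), KO against WT SOX17+ of day 7 (0.189 to 0.404) and WT day 12 against day 7 (0.132 to 0.219). Library runs were sets of neighbouring library numbers with gaps, 68685 to 68693, 68695 to 68703, 68705 to 68714 and 68715 to 68723. They are not batches by label, and the adjacent numbers 68714 and 68715 fall in different runs. Such runs also paired libraries in KO against WT SOX17- of day 7 (0.147 to 0.185) and SOX17+ against SOX17- in KO (0.135 to 0.318). Replicate numbers and runs differ there (KO SOX17- number 3 is in run 4).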

Additional observations from a re-analysis of the deposited data

Results flagged for a closer look

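In groups of 4 libraries, 10 of 110 tests found a highest or lowest library far from the rest, where chance gives about 1 in 20 for a single test. The genes share libraries, so these tests are not independent and no general excess is read from the count. Mesoderm day 0 WT number 1 was the highest of its group for CELSR1 (61.6 CPM), CELSR2 (79.2), CELSR3 (63.1), PRICKLE2 (27.9) and PTK7 (193.0), and day 0 KO number 1 for PRICKLE2 (28). SCRIB was lowest in day 0 WT number 3 (64.4 CPM). ROR2 was highest in day 4 WT number 3 (10.1 CPM). In KO SOX17+ cells of day 12, VANGL2 was lowest in number 2 (34.9 CPM) and VANGL1 highest in number 3 (103.0 CPM).

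The change from day 0 to day 4 differed between endoderm and WT mesoderm by an interaction term of the edgeR fit (log2, endoderm minus mesoderm) for VANGL1 (3.05), VANGL2 (0.94), CELSR1 (1.64), CELSR2 (0.82), PRICKLE1 (-1.57), PRICKLE2 (-2.20) and ROR2 (6.77).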

How the results depend on the processing

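Over all members, tested comparisons and alternatives, 3032 values kept their side of the threshold, 73 lost and 44 gained a call. Of the values called in either setting, 0 changed direction. Changes of direction among values called in neither setting were not counted. Members called without one library each ranged as follows, in the order of the report's comparisons. In WT mesoderm they were 5 to 6 (day 2 against day 0) and 7 (day 4 against day 2), in KO 5 to 7 and 7 to 8, and 0 for KO against WT unsorted. In endoderm they were 6 to 7, 2 to 4 and 4 to 6. For endoderm minus mesoderm they were 0 to 5 (to day 2) and 6 to 7 (to day 4). Between SOX17 fractions they were 0 to 1 in each genotype, and for day 12 against day 7 they were 3 to 6 in WT and 2 to 5 in KO. For CD43+ SOX17- and CD43+ SOX17+ cells against endothelium they were 7 and 2 to 4, between CD43+ fractions 4 to 6, for SOX17+ endothelium against day 4 they were 6 to 8, and for endoderm against it 9 to 10. The 0 members called for endoderm minus mesoderm to day 2 became 2 with no filter, DESeq2 or limma and 3 with the replicate block; the cause was not tested. The log2 fold change of VANGL2 in sorted KO cells ranged over 1.33 to 1.52, 0.92 to 1.16 and 1.02 to 1.22.

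Counts over all genes moved as follows. KO against WT at day 2 gave 0, and 15 with DESeq2, and at day 4 gave 0, 2 with DESeq2, 1 with limma and up to 3 without one library. Between SOX17 fractions of WT 367 genes became 651 with no filter, 559 with the replicate block, 616 with the library run block and 166 to 407 without one library. In KO 154 became 446 with no filter, 333 with DESeq2, 234 with limma, 311 and 376 with the 2 blocks and 46 to 160 without one library. For CD43+ SOX17+ cells against endothelium 6086 became 3857 to 5727. For KO against WT, 13 genes in SOX17+ cells of day 7 became 34 with no filter, 30 with DESeq2, 22 with the library run block and 2 to 11 without one library. In SOX17- cells 2 became 24, 13 with DESeq2, 8 with limma, 7 with either block and 1 to 2. At day 12, 43 became 96, 77 with DESeq2, 12 with limma and 28 to 52. The causes were not tested. Beyond those named, the replicate block added calls of CELSR3 (day 2 against day 0 in KO, day 7 endothelium against day 4), CELSR1 (endoderm day 4 against day 2) and SCRIB (endoderm day 2 against day 0). Counts near 1 CPM, as for PRICKLE2 in CD43+ cells, limit precision.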
